A study of Arabidopsis thaliana with 15 samples.

Results

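MTPA1 and ZIP9 are 2 metal transporter genes of Arabidopsis thaliana, each measured in roots by 1 probe set. MTPA1 (AT3G61940) and ZIP9 (AT4G33020) were taken as the probe sets annotated to exactly one of these genes, 2 of the 13350 genes that a probe set with a single gene names. The array holds 22810 probe sets, and 13513 of them have a single gene. They were picked because their signal was low in a mutant of 3 transcription factor genes and high in both lines that overexpress one of them. Those comparisons therefore appear here as descriptions without a test. The tests concern WS against Col-0 and P35S:rGRF3 against P35S:rGRF1. The choice asked for no difference in either comparison. It did use the levels on the same arrays, so these tests are not fully independent of it.

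Transcript levels were measured on 15 arrays, 3 for each of 5 genotypes, in roots of 2-week-old plants grown on modified Knop's medium at 23 °C with 16 h of light and 8 h of dark. The triple mutant grf1/grf2/grf3 is mutated in GRF1, GRF2 and GRF3, which encode growth-regulating factors, a family of plant transcription factors, and its labels name both ecotypes, Col-0 and WS. P35S:rGRF1, of ecotype Col-0 by its labels, and P35S:rGRF3, of ecotype WS, are transgenic lines that overexpress a form of GRF1 or GRF3 that the microRNA miR396 cannot repress, driven by the CaMV 35S promoter, which is active in most plant tissues. WS and Col-0 are the wild types. All 5 genotypes shared age, organ and medium, and the labels do not say how many independent transgenic lines were used. No probe set of GRF1, GRF2 or GRF3 was analysed here, and the genotypes rest on the labels alone. The arrays of P35S:rGRF3, labelled WS, lay nearer to Col-0 than to WS: limma called 5.3% of tested probe sets higher and 6.61% lower than in Col-0, and 19.4% higher and 33% lower than in WS. These values do not follow the ecotype label of that line. The array sets described further on also place P35S:rGRF3 with Col-0, against its ecotype label. Nearness in ecotype and a shared array set therefore cannot be told apart for this line. Differences of P35S:rGRF3 are given from both wild types.

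Zinc is an essential cofactor that plant cells must take up and must also keep from reaching toxic levels. ZIP proteins move zinc, iron and related metals into the cytosol, whereas metal tolerance proteins (the MTP or cation diffusion facilitator family) move such metals out of the cytosol into compartments or out of the cell. ZIP9 belongs to the first family. MTPA1, also called MTP2, belongs to the second and is known as a zinc transporter of the endoplasmic reticulum in roots. Transcripts of both are known to accumulate in roots short of zinc, and the transcription factors bZIP19 and bZIP23 are the known activators of the zinc deficiency response.

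MTPA1, the exporter of cytosolic zinc, was close to the bottom of the signal range in the mutant and well up in it in both overexpressing lines. No detection calls were used, so the mutant signals may be at background and the transcript may be undetected there, and every difference and rank that involves the mutant rests on that level. Its signal (MAS5 intensity on a linear scale, as deposited) was 3.95, 25.5 and 4.73 on the 3 mutant arrays. It was 652, 755 and 340.4 on the P35S:rGRF1 arrays and 920.5, 1034 and 989.8 on the P35S:rGRF3 arrays. The wild types lay between, with 94.3, 58.9 and 151 in WS and 91.3, 146 and 93.5 in Col-0. No mutant array reached any wild-type array, and no overexpressor array came down to one, while the arrays of the 2 wild types overlapped. Within the arrays, the probe set stood at percentiles 7.73 to 20.7 of all probe sets in the mutant, 61.2 to 78.9 in P35S:rGRF1, 83.2 to 84.9 in P35S:rGRF3, 31.5 to 44.4 in WS and 36.1 to 44.1 in Col-0. In whole roots, fewer cells that carry a transcript and less transcript per cell cannot be told apart.

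The importer ZIP9 followed the same order over a narrower range. Its signal was 105, 272 and 149.7 on the mutant arrays. It was 739, 1095 and 719.7 on the P35S:rGRF1 arrays and 2124, 1709 and 2242 on the P35S:rGRF3 arrays. WS arrays read 392, 355 and 598, and Col-0 arrays read 416, 338 and 376. Again the mutant arrays were all below and the overexpressor arrays all above the wild-type arrays, and WS and Col-0 overlapped. ZIP9 stayed in the middle of the signal range even in the mutant, at percentiles 39.0 to 55.6, and reached 78.1 to 85.7 in P35S:rGRF1 and 91.1 to 93.6 in P35S:rGRF3, against 61.0 to 73.5 in WS and 61.4 to 66.0 in Col-0.

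**Figure D1:**
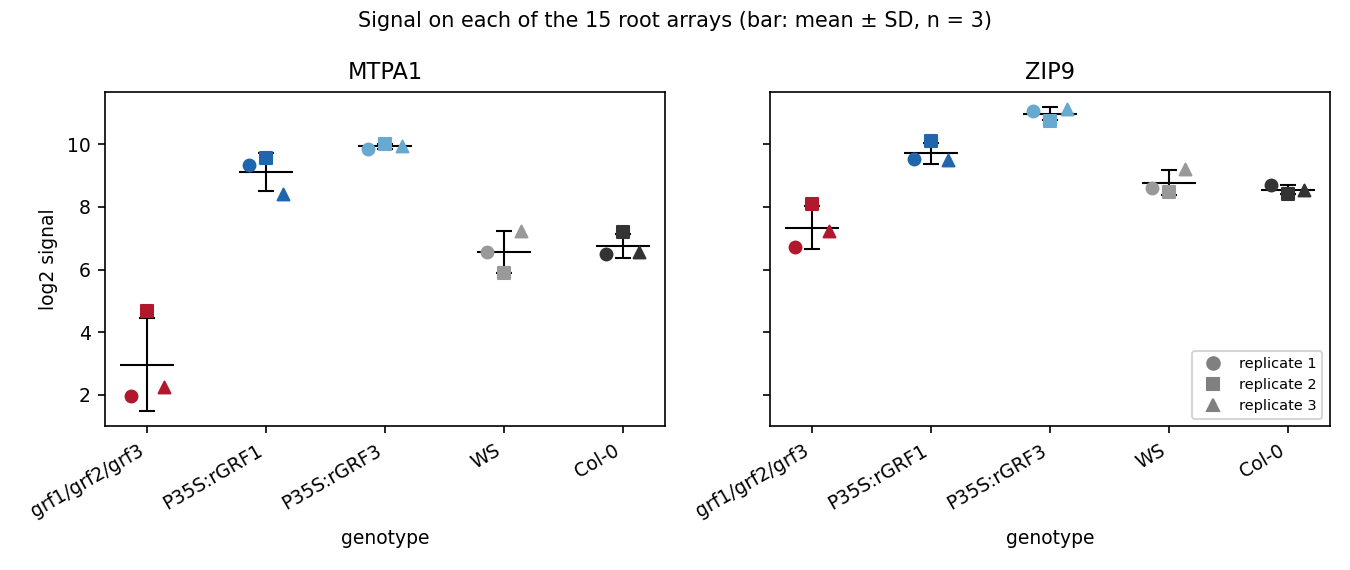
Signal of MTPA1 and ZIP9 on each of the 15 arrays, on a log2 axis, by genotype; symbols are replicate arrays and bars are the mean and SD of 3 arrays. In both genes the mutant arrays lie below, and the arrays of both overexpressing lines above, all 6 wild-type arrays, and the MTPA1 mutant arrays scatter most, with an SD of 1.48 on the log2 scale.

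On the log2 scale MTPA1 averaged 2.97 ± 1.48 in the mutant, 9.11 ± 0.61 in P35S:rGRF1, 9.94 ± 0.08 in P35S:rGRF3, 6.56 ± 0.68 in WS and 6.75 ± 0.38 in Col-0 (SD, n = 3 each). The mutant was lower by a log2 difference of -3.60 from WS and of -3.78 from Col-0. P35S:rGRF1 was higher than Col-0 by 2.36, and P35S:rGRF3 was higher by 3.19 than Col-0 and by 3.38 than WS. In linear terms, computed from the log2 means, MTPA1 was 5.13-fold higher in P35S:rGRF1 than in Col-0, and P35S:rGRF3 was 9.11-fold higher than Col-0 and 10.4-fold higher than WS. Among the 13648 probe sets bright enough to test, ranked by size among the differences of the same comparison and direction, the difference of P35S:rGRF1 from Col-0 had rank 5, that of P35S:rGRF3 from Col-0 rank 7 and that of P35S:rGRF3 from WS rank 86. With 64 signal units added to every value before log2, these differences were 1.84, 2.60 and 2.70, with ranks 15, 8 and 84. The mutant's difference had no fixed size or rank: it was -3.60 from WS with rank 6 as deposited, and -1.11 with rank 129 with 64 signal units added to every value before log2. From Col-0 it was -3.78 with rank 63 as deposited, and -1.21 with rank 475 with 64 added. MTPA1 passed the brightness filter (a mean log2 signal of 6.84 or more) through the overexpressors, since its mean over the wild types was 6.65 and over all arrays 7.06.

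ZIP9 averaged 7.34 ± 0.69 in the mutant, 9.71 ± 0.34 in P35S:rGRF1, 10.97 ± 0.21 in P35S:rGRF3, 8.77 ± 0.40 in WS and 8.55 ± 0.15 in Col-0 on the log2 scale (SD, n = 3 each). The mutant differed by -1.43 from WS and by -1.21 from Col-0. P35S:rGRF1 was 2.23-fold higher than Col-0 (a log2 difference of 1.15). P35S:rGRF3 was 5.36-fold higher than Col-0 (2.42) and 4.61-fold higher than WS (2.21). Ranked in the same way, the difference of P35S:rGRF3 from Col-0 had rank 13, that of P35S:rGRF1 from Col-0 rank 102 and that of the mutant from WS rank 111. The mutant's difference from Col-0 had rank 614 and that of P35S:rGRF3 from WS rank 229.

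Arrays that do not overlap were common in this series, so the share of all tested probe sets that show it belongs beside the members. All mutant arrays lay below all WS arrays in 17.6% of tested probe sets and below all Col-0 arrays in 19.8%. P35S:rGRF1 lay above Col-0 in 19.6%, and P35S:rGRF3 lay above Col-0 in 11.5% and above WS in 21.1%. The whole order, with the mutant below all 6 wild-type arrays and both overexpressing lines above them, was shown by 26 of 13648 probe sets (0.191%), and the opposite order by 43 (0.315%). Without Col-0 replicate 3 the whole order was shown by 44. These shares are background for genes chosen by that order and test nothing about them.

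**Figure D2:**
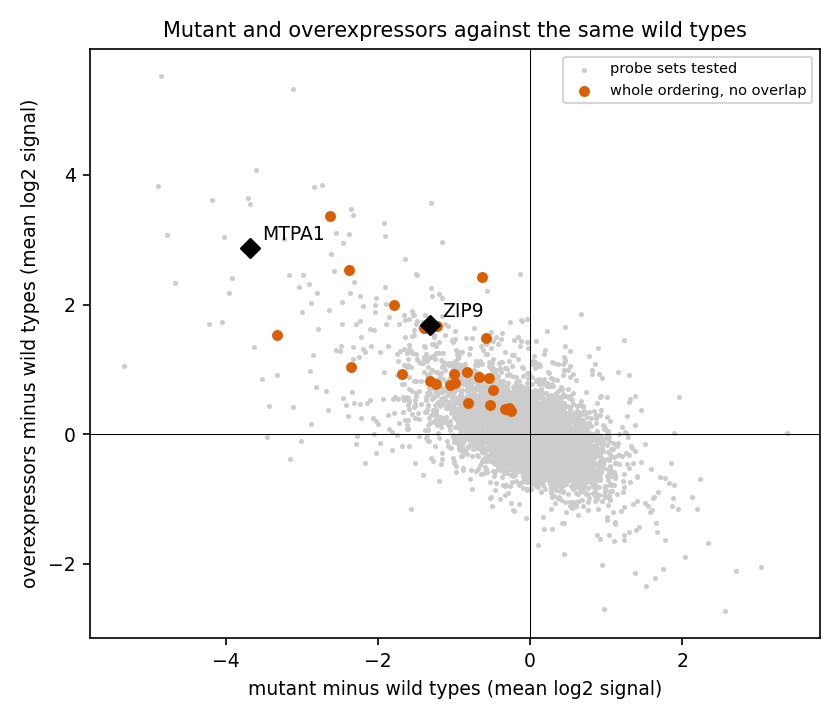
Each tested probe set (grey) by its mean log2 difference of the mutant from the wild types (x axis) and of the overexpressors from the wild types (y axis); orange points show the whole order and diamonds mark MTPA1 and ZIP9. Both differences use the same wild-type arrays, and MTPA1 lies at 2.87 for the overexpressors and at -3.69 for the mutant, where its signals may be at background.

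The 2 overexpressing lines differed in ZIP9. Its log2 difference between P35S:rGRF3 and P35S:rGRF1 was 1.27 (SE 0.27, 95% interval 0.69 to 1.85), a 2.41-fold higher signal in P35S:rGRF3, with an adjusted p of 0.00426 by limma, and the 3 P35S:rGRF3 arrays were all above the 3 P35S:rGRF1 arrays. Of all tested probe sets 8.63% were called higher in this comparison. The signal of the poly-A control RNAs, which are added at labelling, also differed between these arrays: the mean over 24 control probe sets was 6.96 to 9.02 on the log2 scale in P35S:rGRF3 and 9.30 to 9.73 in P35S:rGRF1. With that control level as a covariate, an alternative chosen after seeing the data, the ZIP9 difference was 1.10 with an adjusted p of 0.0666 by limma. The lines also carry different ecotype labels, as do P35S:rGRF3 and Col-0, and ecotype and transgene cannot be told apart in either comparison.

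For MTPA1 the same comparison did not pass the threshold. The log2 difference of P35S:rGRF3 from P35S:rGRF1 was 0.83 (SE 0.53, 95% interval -0.29 to 1.95), with an adjusted p of 0.280 by limma (0.366 with no brightness filter, which MTPA1 passed through these lines), although the arrays of the lines did not overlap, as in 15.6% of probe sets. P35S:rGRF1 replicate 3, at 340.4, was the lowest overexpressor array of MTPA1. The width of the interval leaves room for a difference as large as that of ZIP9. Without P35S:rGRF1 replicate 3 the difference was 0.48 (adjusted p 0.620 by limma). With a fit to only the groups compared, the adjusted p was 0.0348 by limma for the difference of 0.83. With 64 added before log2 the difference was 0.75 with an adjusted p of 0.0282. Both of these fits kept the brightness filter and neither was run without it, so no call of MTPA1 is drawn from them.

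Neither transporter differed detectably between the wild types. MTPA1 differed by -0.19 between WS and Col-0 (SE 0.53, 95% interval -1.31 to 0.93, adjusted p 0.787 by limma, and 0.827 with no brightness filter) and ZIP9 by 0.22 (SE 0.27, 95% interval -0.36 to 0.80, adjusted p 0.529 by limma). The WS and Col-0 arrays overlapped in both genes. In the same comparison 31.4% of tested probe sets were called higher in WS and 20.3% lower. The MTPA1 interval is wide, down to -1.31, so that a lower level in WS was not detectable at this precision.

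The arrays fall into sets by their hybridization controls, which bears on some of these differences. The mean log2 signal of 18 hybridization control probe sets was 10.72 to 11.20 on the mutant and WS arrays and 9.68 to 10.33 on the arrays of both overexpressing lines and Col-0, with no overlap. The mutant shares a set with WS, and both overexpressing lines share one with Col-0. Any difference of the mutant from Col-0 or from an overexpressing line, of an overexpressing line from WS, or of WS from Col-0 crosses the sets. There the array set and the genotype cannot be told apart. The within-set values are the -3.60, 2.36 and 3.19 of MTPA1 and the -1.43, 1.15 and 2.42 of ZIP9. The median log2 signal of an array varied within 0.149. Nothing in the labels states that replicates came from separate cultures, and p-values then cover just the spread among these arrays, whose number limits the precision.

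Tissue markers were set beside the transporters. PYK10, an abundant root beta-glucosidase and 1 of 6 listed root markers with a name on the array, had a high signal of 15973 to 21209 on all 15 arrays. The summed signal of 4 of 6 leaf markers (RCA, LHCB4.1, PSBW and PSBY, all of photosynthesis) was 1807 to 2879 in the mutant, 3324 to 3469 in P35S:rGRF1, 1877 to 2678 in P35S:rGRF3, 3122 to 3627 in WS and 1879.6 to 3195 in Col-0. The mutant was thus below WS, and P35S:rGRF1 above Col-0, in this sum as in MTPA1 and ZIP9. P35S:rGRF3, which had the highest transporter levels, lay within the Col-0 range or just under it. Gene by gene, limma called 3 of the 4 lower in the mutant than in WS, against 6.54% of all tested probe sets. RCA, at -0.15, was not called. In P35S:rGRF1 against Col-0 it called 0 of the 4 (2 higher at an unadjusted p under 0.05), against 5.3% higher and 5.17% lower. Summed root hair expansins EXPA7 and EXPA18 (2 of 7 listed markers) were at 1207 to 1379 in the mutant, 1198 to 1612 in P35S:rGRF1, 1770.2 to 2201 in P35S:rGRF3, 958 to 1097 in WS and 1548 to 2254 in Col-0. In P35S:rGRF3 against P35S:rGRF1, limma called EXPA18 higher (0.54, adjusted p 0.0290) and not EXPA7 (0.46, 0.0580), where 8.63% of probe sets were called higher. In P35S:rGRF1 against Col-0 it called EXPA18 lower (-0.54, 0.0465), opposite in sign to the transporters, and not EXPA7 (-0.40, 0.128). In the mutant against WS neither was called (0.40 and 0.31). No marker named here was at 0. The part of tissue makeup in the transporter levels was not tested.

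MTPA1 and ZIP9 varied together over the arrays, as genes chosen for 1 pattern must to some degree. Over the 15 arrays their log2 signals had a Pearson r of 0.949 and a Spearman rho of 0.943. Once the mean of each genotype was taken away, r was 0.816 and rho 0.611, and without the mutant arrays these were 0.579 and 0.490 over 12 arrays. Replicate 2 was the highest array of both genes in the mutant and in P35S:rGRF1, and replicate 3 was the highest in WS. In P35S:rGRF3 and Col-0 the highest array of MTPA1 was not that of ZIP9. These are descriptions over arrays that share RNA, labelling and hybridization for both genes.

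**Figure D3:**
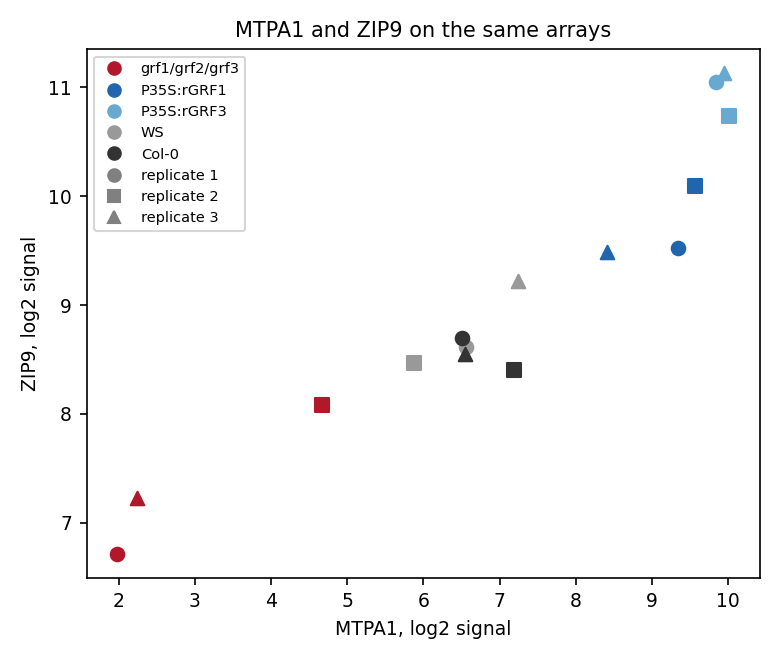
ZIP9 against MTPA1, log2 signal on each of the 15 arrays, coloured by genotype, with symbols for replicates. The mutant arrays lie at the lower left and the overexpressor arrays at the upper right, and within the mutant the array with the highest MTPA1 signal, 25.5, also has the highest ZIP9 signal, 272.

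The genes most like each transporter over the 15 arrays included the other transporter. The 5 named genes with the highest r with MTPA1 were AT1G56680 (0.959), ZIP9 (0.949), ATGSTF13 (0.947), AT1G54890 (0.936) and AT1G20380 (0.931). Those with the highest r with ZIP9 were AT1G20380 (0.965), MTPA1 (0.949), AT5G66590 (0.923), ATGSTF13 (0.917) and AT1G05700 (0.904). Each transporter had rank 2 for the other among all tested probe sets. Both were chosen for the same pattern over these genotypes, so a high r between them was built in and the rank tests nothing. ATGSTF13, a glutathione transferase of the phi class by its symbol, stood on both lists together with AT1G20380. AT1G20380 averaged 8.56 in the mutant, 10.49 in P35S:rGRF1, 11.02 in P35S:rGRF3, 9.85 in WS and 9.13 in Col-0 on the log2 scale, so that its WS mean was above its Col-0 mean. AT1G56680 averaged 3.83 in the mutant, 8.70 in P35S:rGRF1, 8.67 in P35S:rGRF3, 6.66 in WS and 7.67 in Col-0.

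Of the 26 probe sets with the whole order, 12 were named. MTPA1 had rank 1 by span with the values as deposited, a log2 difference of 6.56 between the overexpressors and the mutant, but rank 3 and a span of 3.43 with 64 added before log2, where AT4G07820 spanned 4.99 and AT4G16260 4.65. ZIP9 had rank 9 with 3.00 as deposited, against a median of 2.04. As deposited, AT4G07820 spanned 6.0, AT4G16260 4.92, AT1G56680 4.86, AT1G05700 3.79 and AT3G62280 2.90. Further down were AT1G49030 (2.02), ATGSTF13 (1.81), AT5G27400 (0.98), AT3G17020 (0.68) and AT5G51960 (0.61).

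The wild types differed in 11 of these 26 probe sets, and the transporters, like most of the 26, were not among the 11. Being uncalled therefore does not set them apart from the rest of the 26. Calls between the wild types were common: limma put 20.3% of all tested probe sets down in WS and 31.4% up. All 11 were called lower in WS by limma, and in 15 of the 26 the arrays of the wild types overlapped. The log2 difference of WS from Col-0 was -3.56 for AT4G07820, -2.90 for AT4G16260, -1.44 for AT3G62280, -1.42 for AT1G05700 and -1.0 for AT1G56680, against -0.19 for MTPA1 and 0.22 for ZIP9. The call of AT1G56680 was lost when any one of 12 arrays was left out, among them WS replicate 2 (-0.83, adjusted p 0.149 by limma). It was also lost with no filter (adjusted p 0.0694 by limma), robust fitting (0.0665) or the poly-A covariate (0.0588). The median size of the difference over the 26 was 0.32. The comparison of wild types crosses the array sets.

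**Figure D4:**
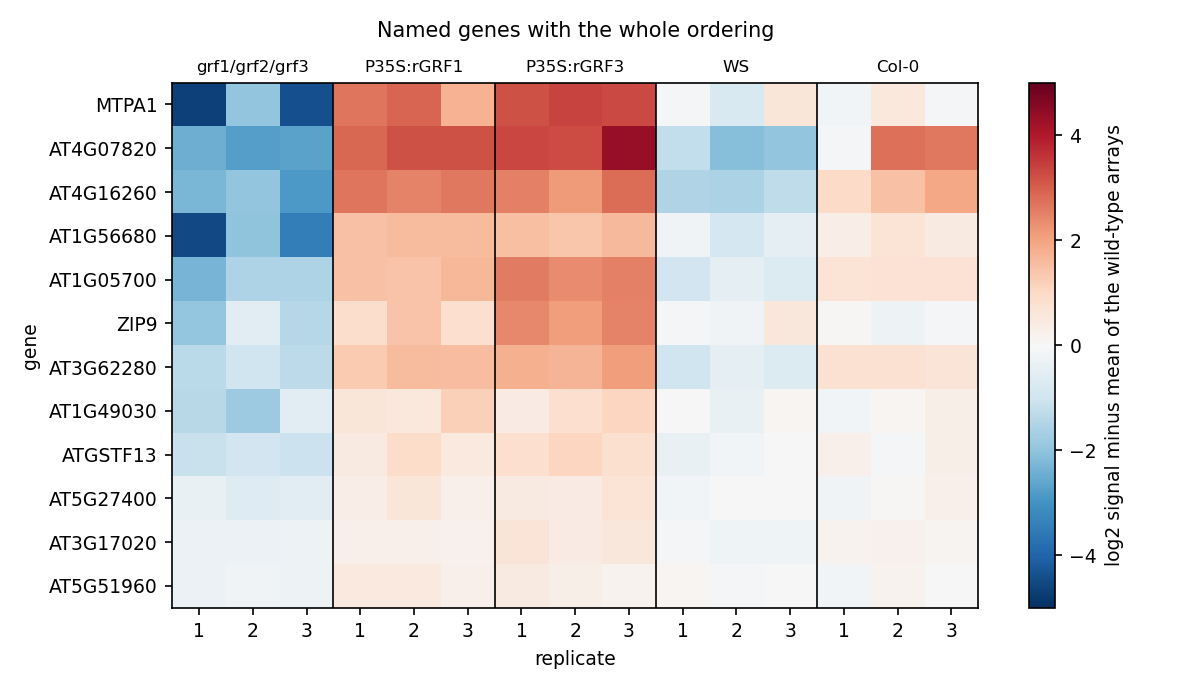
Heat map of the 12 named genes with the whole order (rows) on the 15 arrays (columns, by genotype and replicate); colour is the log2 signal minus the gene's mean over the 6 wild-type arrays, red above and blue below it, saturating at 5 units. AT4G07820 and AT4G16260 are blue in WS and red in Col-0, apart from a pale AT4G07820 on Col-0 replicate 1, with WS minus Col-0 at -3.56 and -2.90, while the wild-type columns of MTPA1 and ZIP9 are pale.

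Too few of the other metal genes were named by the annotation used for their counts to stand apart from those of all probe sets. The annotation left 8730 probe sets of the array without a name, and which genes those measure was not looked at. Of 87 genes on 7 lists (ZIP family, MTP family, heavy metal ATPases, nicotianamine and zinc chelation, iron, copper, and known bZIP19 and bZIP23 targets), 17 were named on the array, MTPA1, ZIP9 and 15 others. No heavy metal ATPase, and no bZIP19 or bZIP23 target besides MTPA1 and ZIP9, was among them. Of the 15, 11 were bright enough to test; AT3G58060, BZIP24, BHLH101 and NRAMP5 were not. In the mutant against WS, limma called 1 of 11 higher and 0 lower (1 lower at an unadjusted p under 0.05), where 7.38% of all probe sets were called higher and 6.54% lower. In P35S:rGRF1 against Col-0 it called 0 of 11 either way (1 higher and 0 lower at an unadjusted p under 0.05), against a background of 5.3% higher and 5.17% lower. In P35S:rGRF3 against Col-0 it called 1 higher and 1 lower, against 5.3% and 6.61%. The median log2 difference of the 11 was -0.08, 0.00 and -0.14 in these comparisons, beside -0.01, 0.03 and -0.02 over all tested probe sets.

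In the comparisons across the array sets, calls were more frequent over all probe sets, and the counts of the metal genes are to be read against that. In P35S:rGRF3 against WS, 4 of 11 were higher and 4 lower, where 19.4% and 33% of all probe sets were called, and the median was -0.23 beside -0.13. In the mutant against Col-0, 0 were higher (1 at an unadjusted p under 0.05) and 2 lower, where 28.1% and 17% were called, and the median was 0.04 beside 0.10.

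**Figure D5:**
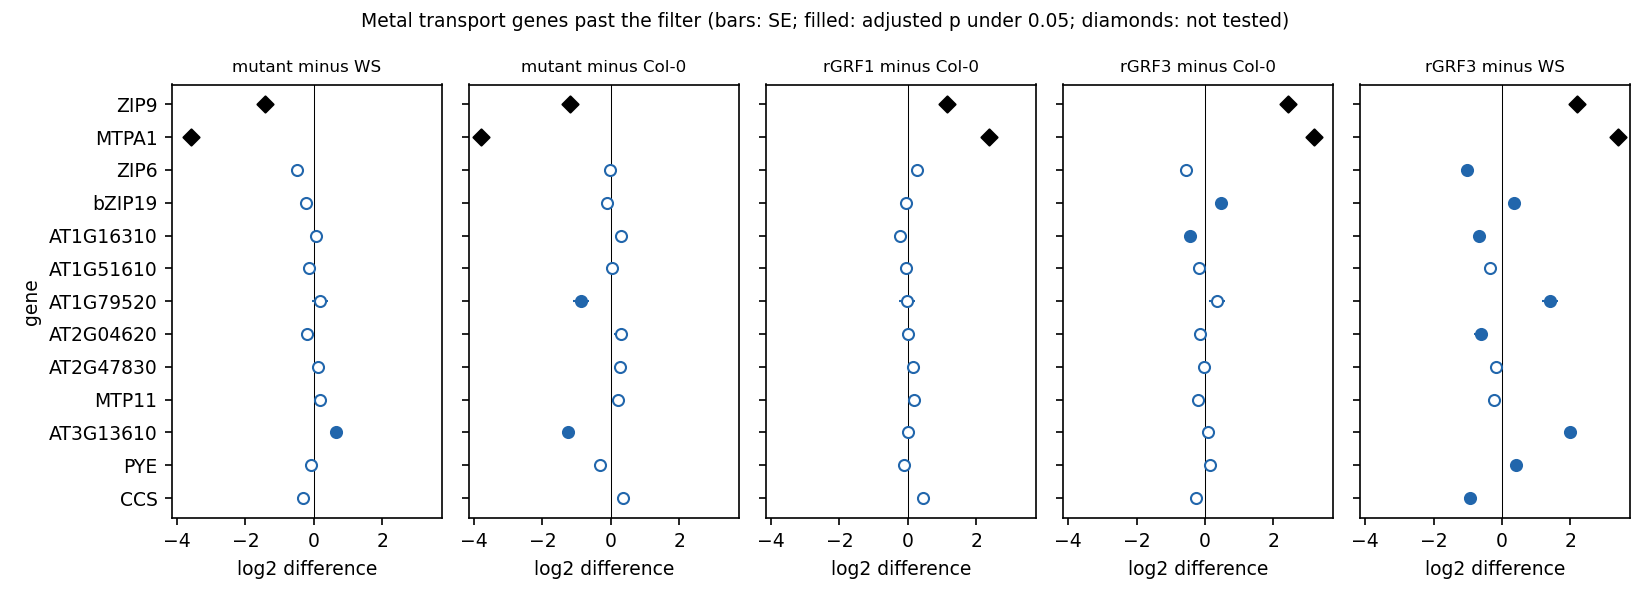
Log2 differences of ZIP9, MTPA1 and the 11 other tested metal genes in the 5 comparisons with a wild type; filled circles had an adjusted p under 0.05 by limma, bars are standard errors where wider than the point, and diamonds (MTPA1 and ZIP9) were not tested. MTPA1 runs from -3.78 to 3.38, where its mutant signals may be at background, and ZIP9 from -1.43 to 2.42. Both were chosen for such differences. The other genes, which were not, lie between -1.25 and 1.99.

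By family, ZIP6, the 1 other named ZIP transporter, was lower in P35S:rGRF3 than in WS by a log2 difference of -1.01 (SE 0.17, adjusted p 1.48e-04 by limma), opposite in sign to ZIP9. From Col-0 it differed by -0.54 in P35S:rGRF3 (adjusted p 0.0518 by limma), and ZIP6 was itself higher in WS than in Col-0 (0.47, adjusted p 0.0321), a call lost without WS replicate 1 (0.42), WS replicate 3 (0.35), Col-0 replicate 1 (0.29) or Col-0 replicate 2 (0.50). This last call was also lost with quantile normalization (adjusted p 0.0761 by limma), array weights (0.0708) or only the groups compared (0.0837). ZIP6 averaged 8.31 ± 0.10 in the mutant, 8.60 ± 0.22 in P35S:rGRF1, 7.78 ± 0.05 in P35S:rGRF3, 8.79 ± 0.30 in WS and 8.32 ± 0.32 in Col-0 on the log2 scale (SD, n = 3 each). It was also lower in P35S:rGRF3 than in P35S:rGRF1, by -0.82 (adjusted p 0.00362 by limma), a comparison in which 12.6% of all probe sets were called lower, and that call was lost with the poly-A covariate (-0.70, adjusted p 0.0618). No other difference of ZIP6 from a wild type was called in the mutant or the lines. The mutant differed by -0.48 from WS (adjusted p 0.0767 by limma) and by -0.01 from Col-0. P35S:rGRF1 differed by 0.28 from Col-0 (adjusted p 0.323 by limma). These uncalled differences had the sign of those of ZIP9.

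Of the other genes on the MTP list, AT1G79520 was lower in the mutant than in Col-0 (-0.87, adjusted p 0.00653 by limma) and higher in P35S:rGRF3 than in WS (1.40), in the direction of MTPA1, and was itself lower in WS than in Col-0 (-1.04). These differences all cross the array sets. Within the sets AT1G79520 was not called. The mutant differed by 0.17 from WS (adjusted p 0.705 by limma), P35S:rGRF1 by -0.04 from Col-0 (0.935) and P35S:rGRF3 by 0.35 from Col-0 (0.378). AT1G16310 was lower in P35S:rGRF3 than in Col-0 (-0.44, adjusted p 0.0347 by limma) and than in WS (-0.67). Its call against Col-0 was lost without P35S:rGRF3 replicate 2 (-0.42), P35S:rGRF3 replicate 3 (-0.32), Col-0 replicate 1 (-0.42) or Col-0 replicate 2 (-0.38). That call was also lost with quantile normalization (adjusted p 0.0674 by limma), the poly-A covariate (0.0528) or only the groups compared (0.189). AT2G04620 was lower in P35S:rGRF3 than in WS (-0.62), a call lost without P35S:rGRF3 replicate 3 (-0.46, adjusted p 0.0538 by limma). AT2G04620 was higher in WS than in Col-0 (0.48, adjusted p 0.0386 by limma), a call lost without WS replicate 1 (0.46), WS replicate 3 (0.42), Col-0 replicate 2 (0.33) or Col-0 replicate 3 (0.49). This call was also lost with no filter (adjusted p 0.0628 by limma), quantile normalization (0.0754) or only the groups compared (0.0550). MTP11, a manganese transporter, was called in none of the comparisons.

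The zinc regulator bZIP19 was higher in P35S:rGRF3. It averaged 9.88 ± 0.10 in the mutant, 9.93 ± 0.06 in P35S:rGRF1, 10.46 ± 0.24 in P35S:rGRF3, 10.12 ± 0.09 in WS and 9.99 ± 0.10 in Col-0 on the log2 scale (SD, n = 3 each). The log2 difference of P35S:rGRF3 was 0.47 from Col-0 (SE 0.12, adjusted p 0.0173), 0.34 from WS (adjusted p 0.0234) and 0.53 from P35S:rGRF1 (adjusted p 0.00520), all by limma. No difference of the mutant or of P35S:rGRF1 from a wild type was called for bZIP19. The call against Col-0 was lost without P35S:rGRF3 replicate 3 (0.37, adjusted p 0.0650 by limma), without Col-0 replicate 3 (0.42, adjusted p 0.0641) and in a fit to only the groups compared (adjusted p 0.129). The call against WS was lost without P35S:rGRF3 replicate 2 (0.30), P35S:rGRF3 replicate 3 (0.25) or WS replicate 3 (0.29), and in a fit to only the groups compared (adjusted p 0.0706 by limma). The call against P35S:rGRF1 was lost with the poly-A covariate (0.37, adjusted p 0.110 by limma). bZIP23 was not analysed here.

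On the iron list AT3G13610 was higher in the mutant than in WS (0.65, SE 0.11, adjusted p 7.87e-04 by limma), opposite in sign to both transporters. It was lower in the mutant than in Col-0 (-1.25, adjusted p 1.28e-07 by limma) and higher in P35S:rGRF3 than in WS (1.99), and its WS minus Col-0 difference was -1.90. PYE, a transcription factor of the iron deficiency response, was higher in P35S:rGRF3 than in WS by 0.40, a call lost without P35S:rGRF3 replicate 1 (0.41), P35S:rGRF3 replicate 3 (0.34), WS replicate 1 (0.36) or WS replicate 2 (0.40). The PYE call was also lost with array weights (0.37, adjusted p 0.0547 by limma). On the copper list CCS, the copper chaperone of superoxide dismutase, was lower in P35S:rGRF3 than in WS (-0.93) and than in P35S:rGRF1 (-0.69); the second call was lost without P35S:rGRF3 replicate 2 (-0.49), and with the poly-A covariate, where the difference was the same size (-0.69) with a larger standard error (adjusted p 0.0768 by limma). CCS was higher in WS than in Col-0 (0.67, adjusted p 0.00442 by limma).

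A further 5 metal genes were added after the annotation was seen, the iron regulators bHLH34, bHLH104, bHLH115 and bHLH121 and the metallothionein MT1C. In the mutant against WS, MT1C was lower (-0.61, adjusted p 0.00937 by limma) and the others were not called. That call was lost without mutant replicate 3 (-0.49, adjusted p 0.0525 by limma) or WS replicate 1 (-0.50, adjusted p 0.0523). MT1C was itself higher in WS than in Col-0 (0.53, adjusted p 0.00561 by limma). The mutant differed from Col-0 by -0.08 in MT1C (adjusted p 0.666 by limma). bHLH115 was lower in P35S:rGRF1 than in Col-0 (-0.38, adjusted p 0.0371 by limma) and higher in P35S:rGRF3 than in P35S:rGRF1 (0.62), whereas MTPA1 and ZIP9 were above Col-0 in both lines. The call of bHLH115 against Col-0 was lost when any one of 6 arrays was left out: P35S:rGRF1 replicates 1, 2 and 3, Col-0 replicates 1 and 2, and WS replicate 2, with values between -0.42 and -0.26. It was also lost with the replicate block (adjusted p 0.0551 by limma), with no filter (0.0540), with only the groups compared (0.109) and with the poly-A covariate (-0.26, 0.184).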

How the data were processed

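RNA of whole roots was labelled by the Affymetrix one-cycle method, per the labels' protocols. The authors deposited array intensity values, untransformed; MAS5 is the tool that the submitters' processing notes name (version not given in the sources used here). No detection calls were used. Intensities were log2-transformed as they stood. Control probe sets (64) were left out of tests, and the 13648 of 22746 others with a mean log2 at or above the 40th percentile (6.84, a signal of 115) were tested. A model of genotype means over the 15 arrays was fitted in limma (version 3.58.1; R 4.3.3; tables read with data.table, version 1.17.8), using eBayes with a trend and two-sided tests, adjusted by Benjamini-Hochberg over all tested probe sets, and called under 0.05. The fit was tested on simulated data. Names came from the platform annotation. Gene order came from assembly TAIR10.1. Named genes were the members, up to 4 called genes per list and comparison with the largest differences, the 5 most alike named genes per member, and 10 named genes of the whole order; the additional metal genes and the neighbours were named after their values were seen. The members and lists were chosen with earlier results of these data known. Alternatives were another filter, offset, normalization, weights or fit, a replicate block, single arrays left out, and the poly-A covariate, which was added after seeing the data.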

Additional observations from a re-analysis of the deposited data

Results flagged for a closer look

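The difference of ZIP9 from Col-0 was not the same in the overexpressing lines, 2.42 on the log2 scale in P35S:rGRF3 and 1.15 in P35S:rGRF1, a difference of 1.27 (adjusted p 0.00426 by limma, n = 3 each). It was past the threshold when any single array was left out, with a highest adjusted p of 0.0236 by limma, and not with the poly-A control level as a covariate (adjusted p 0.0666). Both differences share the Col-0 arrays, which cancel in the difference, and all 3 P35S:rGRF3 arrays lay above all 3 P35S:rGRF1 arrays.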

How the results depend on the processing

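No called result changed sign under an alternative; the uncalled WS minus Col-0 differences ran from -0.53 to 0.15 (MTPA1) and from -0.01 to 0.37 (ZIP9) with single arrays left out. With an offset before log2 the MTPA1 differences shrank: the mutant was at -2.11 from WS and -2.26 from Col-0 with 16 added, and at -1.11 and -1.21 with 64 added, where P35S:rGRF1 was at 1.84 and P35S:rGRF3 at 2.60 from Col-0 and at 2.70 from WS, and ZIP9 in P35S:rGRF3 at 2.24 from Col-0. MTPA1 in P35S:rGRF3 against P35S:rGRF1 passed the threshold with 64 added (0.75) and with only the groups compared (0.83). Both fits kept the brightness filter, which MTPA1 passed through these lines, so no call is drawn from them. The same difference of ZIP9 did not pass with the poly-A covariate (1.10). The cause of these changes was not tested. Leaving out single arrays moved MTPA1 in the mutant to between -4.45 and -3.10 from WS and between -4.64 and -3.29 from Col-0. Called metal genes were counted over the 11 tested, or over all 15 with no filter. In the mutant 2 were higher than WS with no filter (BZIP24 added), and 2 with array weights and 1 with the poly-A covariate were higher than Col-0. From 2 to 3 were lower than Col-0. With no filter AT3G58060 of the MTP list was added (-1.11, adjusted p 0.00400 by limma), in the direction of MTPA1. PYE was added with quantile normalization, array weights or the poly-A covariate. In P35S:rGRF1, 1 was higher than Col-0 with no filter (BHLH101) and 1 lower with array weights (AT1G16310). In P35S:rGRF3, 0 were higher than Col-0 with only the groups compared; 2 were lower with no filter, array weights or robust fitting, and 0 with quantile normalization, the poly-A covariate or only the groups compared. With single arrays left out these counts ran from 1 to 2 higher and 0 to 1 lower (mutant against WS) and 0 to 1 higher and 2 to 3 lower (mutant against Col-0). They ran from 0 to 1 higher and 0 to 3 lower (P35S:rGRF3 against Col-0) and 2 to 4 higher (P35S:rGRF3 against WS). The whole order was shown by 29 probe sets with no filter, 31 after quantile normalization and 28 to 44 with 1 array left out, the 44 without Col-0 replicate 3. Replicate numbers did not pair the samples: over 30 pairs with the same number the median r of deviations was 6.32e-05 (6 over 0.1), and over 60 pairs with different numbers 0.00467 (11 over 0.1). With the replicate block ZIP9 in P35S:rGRF3 against P35S:rGRF1 had an adjusted p of 0.00598 by limma and MTPA1 one of 0.266, and no call of the transporters changed. Low signal limits the precision of MTPA1 in the mutant.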

Other observations

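Genes next to the transporters, by the gene order of TAIR10.1, were looked at after the data were seen, taking the nearest named probe sets on each side. Beside MTPA1, AT3G61930, the adjacent gene, was lower in the mutant than in Col-0 (-1.0, adjusted p 0.00355 by limma) and higher in P35S:rGRF3 than in WS (0.84, adjusted p 0.00878, and 0.63 with an adjusted p of 0.0534 without WS replicate 1), and differed by -0.50 between the mutant and WS (adjusted p 0.199 by limma). AT3G61960, 2 genes away, was called in no comparison with a wild type, and AT3G61920 and AT3G61950 were too dim to test. Near ZIP9, AT4G33040, 2 genes away, was higher in the mutant than in WS (1.91, adjusted p 1.89e-04 by limma) and lower in P35S:rGRF1 than in Col-0 (-2.45, adjusted p 5.55e-05), both opposite in sign to ZIP9, and higher in P35S:rGRF3 than in WS (1.16). It averaged 10.94 in the mutant, 7.57 in P35S:rGRF1, 10.18 in P35S:rGRF3, 9.02 in WS and 10.02 in Col-0 on the log2 scale. Of the other named genes near ZIP9, AT4G33060 was called in no comparison with a wild type, and in P35S:rGRF3 against WS AT4G32970 was lower (-0.63, adjusted p 0.00337 by limma) and AT4G32960 higher (0.53, adjusted p 0.00187).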
